A study of Homo sapiens with 6 samples.

Results

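Among 26329 gene symbols quantified in PC-9 cells, 40 genes of the unfolded protein response and of the response to amino acid shortage were examined. They were taken by symbol from a list set by function, with no measured value in the rule, and form 3 groups by textbook role. The list was chosen with earlier results of these data known, so its counts beside all genes are descriptive. The groups hold 9 regulators (sensor kinases and transcription factors), 16 target genes of the transcription factor ATF4 and 15 chaperones and folding factors of the endoplasmic reticulum (ER). All 40 passed the filter on low counts and were among the 14215 genes tested.

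PC-9 cells, an established line from a human adenocarcinoma of the lung driven by mutant EGFR, were left untreated in RPMI medium with serum, and their total RNA was sequenced. The 3 conditions, with 2 libraries each, were a scrambled control shRNA (shScr), shRBM10#1 and shRBM10#2, the latter both directed at RBM10, a nuclear RNA-binding protein that regulates alternative splicing. All cells carry the EGFR mutation of the line, and a single line was used. The methods call the control parental PC-9 cells whereas the labels of those libraries read shScr, so they were analyzed as shScr.

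Proteins that enter the ER are folded by lumenal chaperones, and unfolded protein activates the sensors PERK (EIF2AK3), IRE1 (ERN1) and ATF6. PERK phosphorylates eIF2alpha, as does the kinase GCN2 when amino acids run short, which slows translation in general but raises translation of the ATF4 mRNA. ATF4 pairs with C/EBP proteins and induces genes for amino acid synthesis and import, whereas the ER sensors IRE1, which splices the XBP1 mRNA, and ATF6 induce the chaperones. ATF4 targets can therefore move with amino acid supply when chaperones do not, and in non-small cell lung cancer cells ATF4 is known to drive the enzymes of serine synthesis.

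The promoters of some members carry short motifs for these factors. Stretches just upstream of RefSeq transcript starts are shown for ASNS and CHAC1, the ATF4 targets with the largest falls with shRBM10#1, and for the 4 chaperones that were lower with shRBM10#2, in the sense of the gene, 5′ to 3′. Capitals mark the core of the C/EBP-ATF response element (CARE, searched as TGATGNAA) in the first pair. In the others they mark the ER stress response element (ERSE, searched as CCAAT and CCACG with 9 free bases between) or its second type (ERSE-II, searched as ATTGG and CCACG with 1 free base between), and capitals in the reverse complement mark a match on the opposite strand.
ASNS, chr7:97872439-97872506, minus strand: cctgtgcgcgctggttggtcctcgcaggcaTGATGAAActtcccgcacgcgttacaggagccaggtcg
CHAC1, chr15:40953232-40953299, plus strand: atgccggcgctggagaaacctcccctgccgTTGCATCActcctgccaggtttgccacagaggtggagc
HSPA5, chr9:125241361-125241439, minus strand: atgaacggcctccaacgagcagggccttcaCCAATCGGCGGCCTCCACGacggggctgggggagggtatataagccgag
CALR, chr19:12938359-12938432, plus strand: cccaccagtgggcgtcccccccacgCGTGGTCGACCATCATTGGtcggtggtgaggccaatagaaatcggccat
SDF2L1, chr22:21642084-21642154, plus strand: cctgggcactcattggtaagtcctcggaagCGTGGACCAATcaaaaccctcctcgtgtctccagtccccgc
HYOU1, chr11:119057244-119057420, minus strand: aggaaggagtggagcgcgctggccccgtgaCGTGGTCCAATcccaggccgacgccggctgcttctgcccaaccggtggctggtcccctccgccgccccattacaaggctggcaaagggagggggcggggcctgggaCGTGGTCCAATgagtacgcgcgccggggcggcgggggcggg

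The coordinates are those of GRCh38.p14, and the matches begin 68 bases before the start of ASNS, 209 before that of CHAC1, 66 before that of HSPA5, 225 before that of CALR, 188 before that of SDF2L1 and 185 and 79 before that of HYOU1. These starts belong to single RefSeq transcripts and can lie inside the gene bounds of GENCODE 29 given for a gene elsewhere in the text, as they do for ASNS and CHAC1. RefSeq windows from 250 bases before to 50 after a start were searched on both strands and were at hand for 37 of the 40 members. The CARE core was found for 4 of the 14 ATF4 targets with a window (ASNS, CHAC1, SLC3A2 and SLC7A1), for CEBPG and for HERPUD1. A gene was counted when any of its windows held the motif, and 4.46% of all 27305 genes held the CARE core. ERSE was found for 6 of the 14 chaperones with a window (HSPA5, HSP90B1, PDIA6, CALR, CANX and CRELD2) and for XBP1. ERSE-II was found for another 3 chaperones (SDF2L1, HERPUD1 and HYOU1). Of all genes, 0.0916% held ERSE and 0.0696% held ERSE-II. No member held both ERSE types, and the CARE core of HERPUD1 lies apart from its ERSE-II. A match is a description of these letters and not evidence of binding.

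RBM10 itself, in CPM (counts scaled to library size by the TMM method), stood at 83.2 and 86.2 with shScr, at 59.8 and 56.4 with shRBM10#1 and at 27.2 and 26.9 with shRBM10#2. The conditions did not overlap, and the knockdown was deeper with shRBM10#2 (31.9% of the shScr level) than with shRBM10#1 (68.6%). Library totals ran from 31953729 to 37557507 expected counts. The epithelial markers EPCAM, CDH1, KRT7, KRT8, KRT18 and KRT19 were abundant, whereas NKX2-1, SFTPB and NAPSA, which mark lung alveolar epithelium, were under 1 TPM in every library. Markers of other cells were under 1 TPM in every library for 6 of 7 fibroblast and 3 of 5 endothelial genes and for the immune genes PTPRC, CD3E, LYZ and ITGAM. The summed levels ranged between 2.15 and 2.96 TPM for fibroblast and between 6.05 and 12.8 TPM for endothelial genes, the endothelial sum being highest with shRBM10#1 (10.3 and 12.8 TPM). Most of that sum was CDH5, at 4.65 and 6.16 TPM with shScr, 8.45 and 10.9 with shRBM10#1 and 6.08 and 5.64 with shRBM10#2. The log2 FC of CDH5 was 0.95 with shRBM10#1 (edgeR FDR = 0.000401) and 0.19 with shRBM10#2 (edgeR FDR = 0.326). CD68, a lysosomal gene of macrophages that epithelial cells also express, stood at 99.5 and 116 TPM with shScr, 81.7 and 80.2 with shRBM10#1 and 76.8 and 78.4 with shRBM10#2. It was lower with each shRNA (log2 FC -0.33 and -0.42, edgeR FDR = 0.00407 and 0.000774). The summed epithelial markers lay between 25526 and 27251 TPM with shScr, 26481 and 28964 with shRBM10#1 and 22790 and 23670 with shRBM10#2, where the sum was lower in both libraries. The part of these markers in the results was not tested.

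Replicates differed for the ATF4 targets. In shScr, replicate 1 was above replicate 2 for 15 of the 16 ATF4 targets (median ratio 1.17), against 49.5% of all genes tested (median ratio 0.998), and for 8 of the 15 chaperones (median ratio 1.03). In shRBM10#1, replicate 1 was above replicate 2 for 12 of the 16 targets (median ratio 1.11), against 49.7% of all genes (median ratio 0.999), and in shRBM10#2 for 8 of the 16 (median ratio 1). The mean RNA fragment implied by the deposited effective lengths was 231 nt in shScr replicate 2 and 265 to 281 nt in the other libraries. With an offset for effective length, 13 and 12 of the 16 ATF4 targets were called with shRBM10#1 and shRBM10#2. The comparisons with shScr below share these 2 libraries, so the counts of each group are also given without the libraries that move them.

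ATF4 target genes were lower with each shRNA, with 13 of 16 lower and 0 higher in either comparison (edgeR, FDR below 0.05). Of all genes tested, 6.92% were lower with shRBM10#1 and 13.9% with shRBM10#2. The median log2 FC of the 16 was -0.66 with shRBM10#1 and -0.51 with shRBM10#2, beside 0.01 over all genes in each comparison. DESeq2 also called 13 lower and 0 higher in each comparison, and 13 and 14 of the 16 had an unadjusted edgeR p below 0.05. A fall of more than 2-fold was found for 5 of them with shRBM10#1 (ASNS, CHAC1, SESN2, PSAT1 and STC2; 1.07% of all genes) and for CHAC1 alone with shRBM10#2 (0.584% of all genes). With a library left out, the falls over 2-fold numbered 3 to 7 with shRBM10#1, 3 without shScr replicate 1 or shRBM10#1 replicate 2, and 0 to 2 with shRBM10#2. Every shRBM10#1 library lay below both shScr libraries for 13 of the 16, where 25.7% of all genes did so, and every shRBM10#2 library for 15 of the 16, where 33.0% of all genes did so. The fall with shRBM10#1 was called for 13 of the 16 whichever library was left out. With shRBM10#2 the count was 8 without shScr replicate 1, 9 without shRBM10#2 replicate 1 and 8 without shRBM10#2 replicate 2, and it was 15 without shScr replicate 2. With a shScr or shRBM10#2 library left out, fewer of all genes were also called with shRBM10#2. Lower counts in those fits, here and below, are thus not particular to the ATF4 targets. The medians and counts speak of mRNA in bulk libraries, in which fewer cells with a transcript and less of it per cell cannot be told apart.

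**Figure D1:**
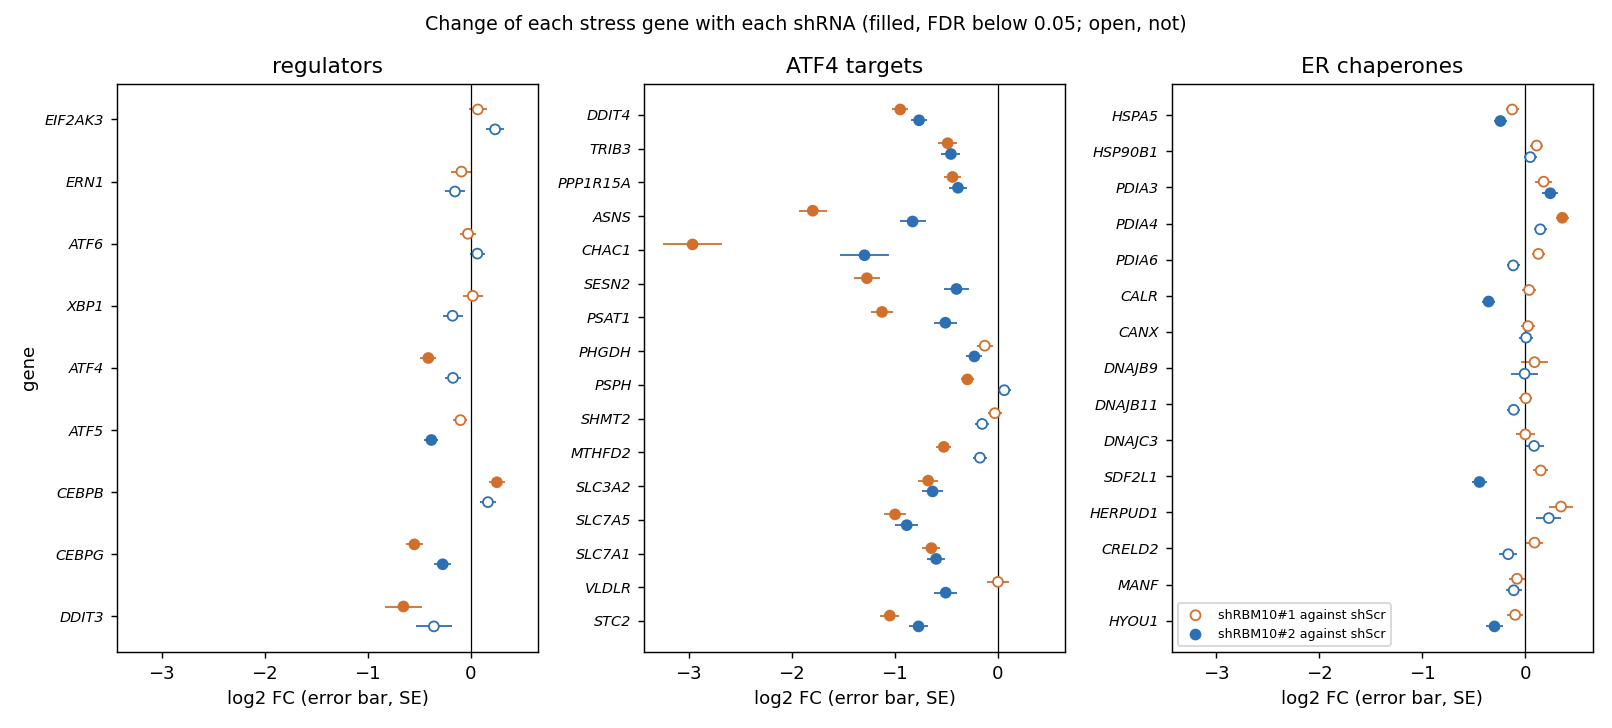
Log2 fold change of each of the 40 genes with shRBM10#1 (orange) and shRBM10#2 (blue) relative to shScr, by group, with bars for the SE of the edgeR fit (2 libraries per condition). Filled points have an FDR below 0.05. ATF4 targets lie mostly to the left of 0, down to -2.96 for CHAC1, and the ER chaperones lie within -0.44 to 0.36.

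With shRBM10#1 the largest falls were in CHAC1 and ASNS, and with shRBM10#2 in CHAC1 and SLC7A5. CHAC1 (chromosome 15, 40952962 to 40956519, GRCh38, plus strand) encodes an enzyme that degrades glutathione. It gave 17.9 and 10.1 CPM with shScr, 2.3 and 1.33 with shRBM10#1 and 6.33 and 5.06 with shRBM10#2. The conditions did not overlap, although the shScr libraries differed from each other more than for most members. The log2 FC of CHAC1 was -2.96 with shRBM10#1 (SE 0.283, edgeR FDR = 4.19e-05) and -1.29 with shRBM10#2 (SE 0.239, edgeR FDR = 0.00248), equal to 12.8% and 40.8% of its level with shScr. Over the 12 alternative settings the value with shRBM10#2 ran from -1.65 to -0.83 and stayed called, the smallest fall being that without shScr replicate 1.

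ASNS (chromosome 7, 97852118 to 97872542, GRCh38, minus strand) encodes asparagine synthetase. It gave 56.5 and 41.2 CPM with shScr, 15.6 and 12.6 with shRBM10#1 and 27.5 in both shRBM10#2 libraries. All RBM10 KD libraries were below both shScr libraries, and shRBM10#1 was below shRBM10#2. The log2 FC of ASNS was -1.80 with shRBM10#1 (SE 0.136, edgeR FDR = 8.72e-06) and -0.83 with shRBM10#2 (SE 0.127, edgeR FDR = 0.000907).

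Among the enzymes of serine and one-carbon metabolism, the genes did not move together. PSAT1, which makes phosphoserine in the serine pathway, gave 305 and 243 CPM with shScr, 140 and 112 with shRBM10#1 and 195 and 191 with shRBM10#2. Its log2 FC was -1.12 with shRBM10#1 (edgeR FDR = 5.08e-05) and -0.51 with shRBM10#2 (edgeR FDR = 0.00544), the latter not passing without shScr replicate 1 (edgeR FDR = 0.0687) or shRBM10#2 replicate 2 (edgeR FDR = 0.0604). PSPH, the phosphatase of the last step, gave 109 and 113 CPM with shScr, 89.8 and 90.9 with shRBM10#1 and 115 and 116 with shRBM10#2. It was thus lower with shRBM10#1 alone (log2 FC -0.30, edgeR FDR = 0.00641), and a pseudogene of near-identical sequence may share its reads. MTHFD2, a mitochondrial folate enzyme, gave 232 and 206 CPM with shScr, 157 and 147 with shRBM10#1 and 195 and 193 with shRBM10#2. Its fall passed with shRBM10#1 (log2 FC -0.53, edgeR FDR = 0.00041) and not with shRBM10#2 (log2 FC -0.17, edgeR FDR = 0.0871). PHGDH, the first enzyme of serine synthesis, had the smallest call of the group, with a log2 FC of -0.23 with shRBM10#2 (edgeR FDR = 0.0463) that did not pass without shScr replicate 1 (edgeR FDR = 0.353) or either shRBM10#2 library (edgeR FDR = 0.23 and 0.238). It also missed the threshold under the replicate block (edgeR FDR = 0.0601) and with an effective length offset (edgeR FDR = 0.0702). Its log2 FC with shRBM10#1 was -0.13 (edgeR FDR = 0.309). SHMT2, which passes serine carbon to folate, had log2 FC values of -0.03 and -0.15 with shRBM10#1 and shRBM10#2 and passed with neither.

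The 3 amino acid transporters among the 16 targets fell with each shRNA. SLC7A5, the light chain of the large neutral amino acid transporter LAT1, gave 728 and 643 CPM with shScr, 392 and 294 with shRBM10#1 and 381 and 362 with shRBM10#2. SLC3A2, its heavy chain (CD98), gave 504 and 397 CPM, 303 and 261 CPM, and 288 and 293 CPM in the same order. SLC7A1, an importer of arginine and lysine, gave 264 and 252 CPM, 183 and 147 CPM, and 172 and 168 CPM. For each of the 3 transporters the RBM10 KD libraries lay below both shScr libraries and the libraries of the shRNAs were interleaved. With shRBM10#1 the log2 FC was -0.998 for SLC7A5 (SE 0.109, edgeR FDR = 9.95e-05), -0.68 for SLC3A2 (SE 0.1, edgeR FDR = 0.000781) and -0.65 for SLC7A1 (SE 0.087, edgeR FDR = 0.000405). With shRBM10#2 it was -0.88 for SLC7A5 (SE 0.109, edgeR FDR = 0.000291), -0.63 for SLC3A2 (SE 0.1, edgeR FDR = 0.00103) and -0.60 for SLC7A1 (SE 0.0867, edgeR FDR = 0.000681). These 3 genes stayed called with each shRNA in all 12 alternative settings, those that leave out a library included.

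**Figure D2:**
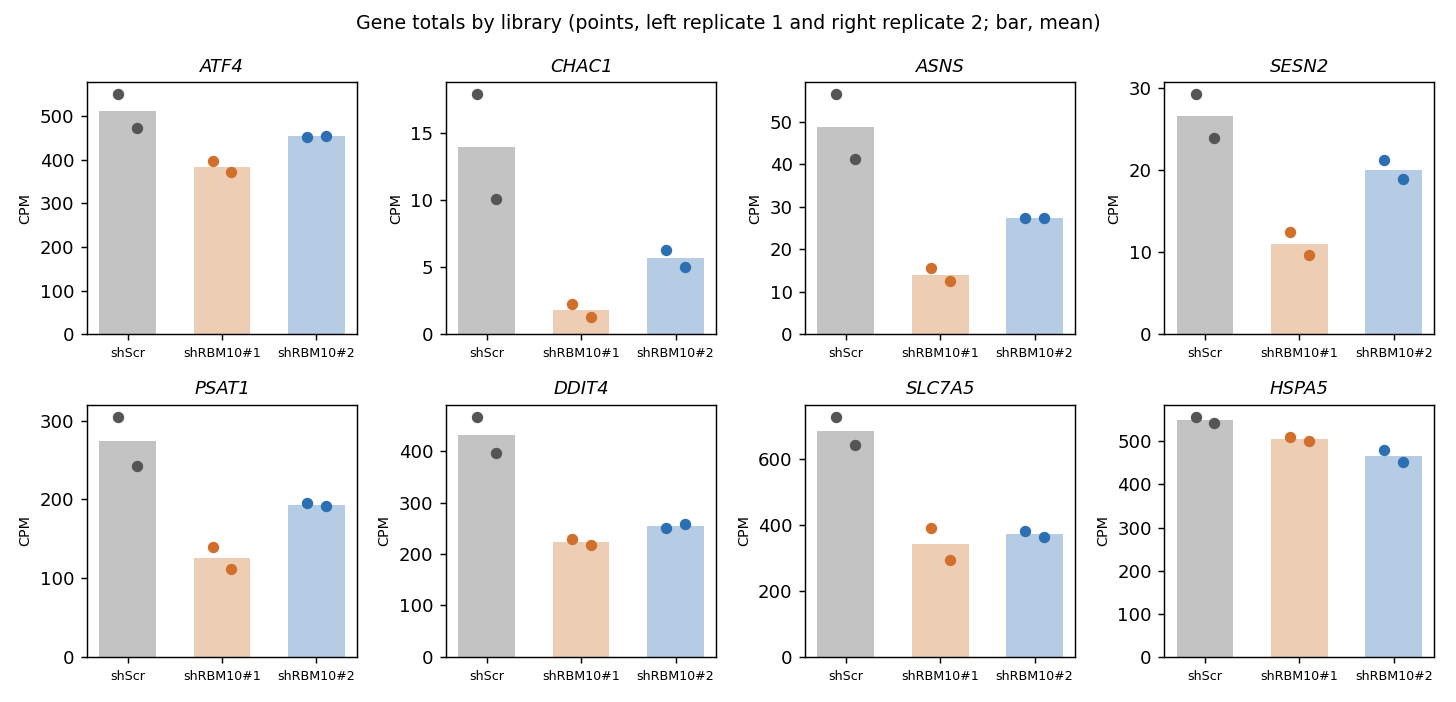
CPM in each library (points, replicate 1 on the left and replicate 2 on the right of each bar) and the mean (bar) of 8 of the genes in shScr, shRBM10#1 and shRBM10#2 cells, each panel with its own axis from 0. The shScr libraries of CHAC1 sit at 17.9 and 10.1 CPM, above all RBM10 KD libraries, whereas the libraries of HSPA5 lie between 452 and 557 CPM.

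The stress-signalling targets also fell. DDIT4 (REDD1), which restrains mTORC1, gave 467 and 396 CPM with shScr, 229 and 218 with shRBM10#1 and 251 and 258 with shRBM10#2. Its log2 FC was -0.95 with shRBM10#1 (SE 0.0784, edgeR FDR = 1.6e-05) and -0.76 with shRBM10#2 (SE 0.078, edgeR FDR = 9.52e-05), and 51.8% and 58.9% of the shScr level remained. SESN2, a leucine sensor that acts on the same kinase, gave 29.2 and 23.9 CPM with shScr, 12.5 and 9.61 with shRBM10#1 and 21.2 and 18.9 with shRBM10#2. Its log2 FC was -1.27 with shRBM10#1 (edgeR FDR = 6.46e-05) and -0.40 with shRBM10#2 (edgeR FDR = 0.0298), and the latter did not pass without shScr replicate 1 (edgeR FDR = 0.258) or either shRBM10#2 library (edgeR FDR = 0.0701 and 0.234).

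STC2 encodes a secreted glycoprotein that is induced under ER stress. It gave 380 and 326 CPM with shScr, 185 and 156 with shRBM10#1 and 213 and 201 with shRBM10#2. The log2 FC of STC2 was -1.05 with shRBM10#1 (SE 0.0909, edgeR FDR = 2.24e-05) and -0.77 with shRBM10#2 (SE 0.0902, edgeR FDR = 0.000217). TRIB3 encodes a pseudokinase that binds AKT and ATF4, and PPP1R15A (GADD34) encodes the subunit that directs a phosphatase to eIF2alpha, so both act back on the pathway. TRIB3 gave 225 and 177 CPM with shScr, 142 and 145 with shRBM10#1 and 151 and 143 with shRBM10#2, with log2 FC values of -0.49 (edgeR FDR = 0.00383) and -0.46 (edgeR FDR = 0.00403). PPP1R15A gave 69.2 and 60 CPM, 45.3 and 49.8 CPM, and 47.6 and 51.1 CPM, with log2 FC values of -0.44 (edgeR FDR = 0.00407) and -0.39 (edgeR FDR = 0.00571). Between the shRNAs TRIB3 and PPP1R15A differed by a log2 FC of 0.03 and 0.05, less than the SE of each. With shRBM10#2 the call was lost for TRIB3 without shRBM10#2 replicate 2 (edgeR FDR = 0.0666) and for PPP1R15A without shScr replicate 1 (edgeR FDR = 0.0589) or shRBM10#2 replicate 1 (edgeR FDR = 0.0869).

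VLDLR encodes a lipoprotein receptor. It gave 12.7 and 11.3 CPM with shScr, 11.3 and 12.7 with shRBM10#1 and 8.27 and 8.61 with shRBM10#2. The shScr and shRBM10#1 libraries covered the same range, and the fall with shRBM10#2 (log2 FC -0.51, edgeR FDR = 0.00638) was not called without shScr replicate 1 (edgeR FDR = 0.0566) or either shRBM10#2 library (edgeR FDR = 0.07 and 0.0574).

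Of the 16 targets, 11 were called lower with both shRNAs (DDIT4, STC2, SLC7A5, SLC7A1, ASNS, SLC3A2, CHAC1, TRIB3, PSAT1, PPP1R15A and SESN2), where 3.45% of all genes were, and 0 were called higher with both, where 2.62% of all genes were. The comparisons share the shScr libraries, so a count of both is not that of separate experiments. The count was 8 without shScr replicate 1, 9 without shRBM10#2 replicate 1, 8 without shRBM10#2 replicate 2 and 12 without any other 1 library.

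Of the 9 regulators, 3 were lower (ATF4, CEBPG and DDIT3) and 1 was higher (CEBPB) with shRBM10#1, and 2 were lower (ATF5 and CEBPG) with shRBM10#2 (edgeR, FDR below 0.05). Of all genes, 6.92% were lower and 7.14% higher with shRBM10#1 and 13.9% were lower with shRBM10#2, and 2 of 9 is little above the latter. With a library left out, 2 to 3 regulators were lower with shRBM10#1 and 0 (without shRBM10#2 replicate 2) to 4 (without shScr replicate 2) with shRBM10#2. ATF4 (chromosome 22, 39519695 to 39522685, GRCh38, plus strand) gave 550 and 473 CPM with shScr, 398 and 371 with shRBM10#1 and 453 and 455 with shRBM10#2. Its log2 FC was -0.41 with shRBM10#1 (SE 0.0767, edgeR FDR = 0.0035) and -0.17 with shRBM10#2 (SE 0.0765, edgeR FDR = 0.119). All RBM10 KD libraries of ATF4 were below both shScr libraries, yet the fall with shRBM10#2 passed only when shScr replicate 2 was left out (edgeR FDR = 0.0289). Since ATF4 is controlled largely at translation, its mRNA level does not measure the protein.

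CEBPG, a C/EBP family partner of ATF4, was the only regulator lower with both shRNAs. It gave 55.1 and 47.2 CPM with shScr, 36.3 and 33.7 with shRBM10#1 and 42.7 and 42 with shRBM10#2. The log2 FC of CEBPG was -0.55 with shRBM10#1 (edgeR FDR = 0.000958) and -0.27 with shRBM10#2 (edgeR FDR = 0.0293), the latter not called without shScr replicate 1 (edgeR FDR = 0.223) or either shRBM10#2 library (edgeR FDR = 0.144 and 0.196). DDIT3 (CHOP), which promotes cell death under lasting ER stress, was low throughout, at 10.9 and 6.96 CPM with shScr, 5.82 and 5.56 with shRBM10#1 and 6.54 and 7.41 with shRBM10#2. The high value of shScr replicate 1 carried its call, since the log2 FC with shRBM10#1 was -0.65 (edgeR FDR = 0.0315) and, without that library, -0.29 (edgeR FDR = 0.271). The call of DDIT3 was also lost without either shRBM10#1 library (edgeR FDR = 0.0546 and 0.126) and with an effective length offset (edgeR FDR = 0.0727).

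ATF5, an ATF4-related factor, gave 65.9 and 65.3 CPM with shScr, 60.7 and 61.7 with shRBM10#1 and 52.2 and 48.4 with shRBM10#2. It was lower with shRBM10#2 (log2 FC -0.38, edgeR FDR = 0.00211) but not without shRBM10#2 replicate 2 (edgeR FDR = 0.0671), and with shRBM10#1 its log2 FC was -0.10 (edgeR FDR = 0.369). CEBPB, another C/EBP partner, gave 435 and 364 CPM with shScr, 472 and 481 with shRBM10#1 and 445 and 452 with shRBM10#2. Its rise with shRBM10#1 (log2 FC 0.25, edgeR FDR = 0.049) lay at the threshold and was called in 3 of the 12 alternative settings. Without shScr replicate 2 the log2 FC of CEBPB was 0.13 (edgeR FDR = 0.306).

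None of the 3 sensor kinases and factors of the ER membrane was called, nor was XBP1. EIF2AK3 (PERK) gave 18 and 18.3 CPM with shScr, 19.7 and 18.4 with shRBM10#1 and 22.5 and 20.3 with shRBM10#2 (log2 FC 0.07 and 0.24, edgeR FDR = 0.66 and 0.0661), the latter passing without either shRBM10#1 library (edgeR FDR = 0.0467 and 0.0452). ERN1 (IRE1) gave 12 and 12.3 CPM, 11.3 and 11.5 CPM, and 11.3 and 10.6 CPM (log2 FC -0.09 and -0.15, edgeR FDR = 0.603 and 0.288). ATF6 gave 42.1 and 45 CPM, 41 and 44.5 CPM, and 43.9 and 47.2 CPM (log2 FC -0.03 and 0.07, edgeR FDR = 0.86 and 0.57). The activity of these sensors is set after translation, and these mRNA levels do not measure it. XBP1 gave 120 and 106 CPM, 102 and 126 CPM, and 105 and 94.6 CPM (log2 FC 0.02 and -0.18, edgeR FDR = 0.919 and 0.204), with the libraries of all conditions interleaved.

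Among the 15 ER chaperones, more were called with shRBM10#2 than with shRBM10#1 relative to shScr. With shRBM10#1, 1 of 15 was higher (PDIA4) and 0 were lower (edgeR, FDR below 0.05). These counts are near the shares of all genes, 7.14% higher and 6.92% lower. With shRBM10#2, 4 were lower (HSPA5, CALR, SDF2L1 and HYOU1) and 1 was higher (PDIA3), where 12.0% of all genes were higher. The count of 0 lower with shRBM10#1 was also 0 with DESeq2, and 3 of the 15 had an unadjusted edgeR p below 0.05 in that comparison in either direction. The median log2 FC of the 15 was 0.09 with shRBM10#1 and -0.11 with shRBM10#2, and no member of the group changed by 2-fold in any comparison. Both shRBM10#1 libraries lay below both shScr libraries for 1 of the 15 and above them for 5. Of all 14215 genes, 3657 (25.7%) lay below and 3970 above. With shRBM10#2 the counts were 8 below and 4 above, beside 4698 (33.0%) and 4772 of all genes. The log2 FC was above 0 for 12 of the 15 with shRBM10#1 and for 6 of the 15 with shRBM10#2. With shRBM10#2 the share called lower (4 of 15) is to be read against the 13.9% of all genes. The 5 calls with shRBM10#2 fell to 3 without shScr replicate 2 and to 1 (SDF2L1) without either shRBM10#2 library, and the single call with shRBM10#1 became 3 without shRBM10#1 replicate 1, when PDIA3 and HERPUD1 also passed.

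HSPA5 (BiP; chromosome 9, 125234853 to 125241330, GRCh38, minus strand), the main HSP70 of the ER and the classic marker of the unfolded protein response, gave 557 and 543 CPM with shScr, 509 and 500 with shRBM10#1 and 479 and 452 with shRBM10#2. Its libraries fell in that order without overlap, over a narrow range. The log2 FC of HSPA5 was -0.13 with shRBM10#1 (SE 0.0628, edgeR FDR = 0.213) and -0.24 with shRBM10#2 (SE 0.0628, edgeR FDR = 0.015), the latter not called without shScr replicate 1 (edgeR FDR = 0.0637) or either shRBM10#2 library (edgeR FDR = 0.0918 and 0.236). HSP90B1 (GRP94), the HSP90 of the ER, gave 690 and 701 CPM with shScr, 767 and 736 with shRBM10#1 and 720 in both shRBM10#2 libraries (log2 FC 0.11 and 0.05, edgeR FDR = 0.256 and 0.593).

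CALR, a lectin chaperone that binds calcium, gave 770 and 849 CPM with shScr, 843 and 821 with shRBM10#1 and 628 and 639 with shRBM10#2. Both shRBM10#2 libraries were below all others (log2 FC -0.35, edgeR FDR = 0.00276), and the call missed the threshold without either of them (edgeR FDR = 0.0567 and 0.0521). SDF2L1, a cofactor of the ER HSP70 machinery, gave 35.8 and 33.4 CPM with shScr, 39.4 and 37.5 with shRBM10#1 and 25.3 and 25.5 with shRBM10#2. Its fall with shRBM10#2 (log2 FC -0.44, SE 0.075, edgeR FDR = 0.00159) was called in all 12 alternative settings. HYOU1, a nucleotide exchange factor for BiP, was lower with shRBM10#2 (log2 FC -0.30, edgeR FDR = 0.0152) but not without shScr replicate 2 (edgeR FDR = 0.113) or either shRBM10#2 library (edgeR FDR = 0.062 and 0.188).

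Among the disulfide isomerases, PDIA4 rose with shRBM10#1 and PDIA3 with shRBM10#2. PDIA4 gave 566 and 580 CPM with shScr, 729 and 743 with shRBM10#1 and 632 and 637 with shRBM10#2. Its rise with shRBM10#1 (log2 FC 0.36, SE 0.0607, edgeR FDR = 0.00177) was called in all 12 alternative settings, and all RBM10 KD libraries were above both shScr libraries. PDIA3 was higher with shRBM10#2 (log2 FC 0.24, edgeR FDR = 0.0388), but not without shScr replicate 2 (edgeR FDR = 0.225) or either shRBM10#2 library (edgeR FDR = 0.179 and 0.213), nor under the replicate block (edgeR FDR = 0.0599) or with an effective length offset (edgeR FDR = 0.0577). PDIA6 gave 482 and 455 CPM with shScr, 498 and 526 with shRBM10#1 and 435 and 430 with shRBM10#2, and CRELD2, a secreted isomerase-like factor, gave 22 and 21.2 CPM, 21.8 and 24.1 CPM, and 18.8 and 19.8 CPM. Neither PDIA6 nor CRELD2 was called relative to shScr. The remaining 6 (CANX, DNAJB9, DNAJB11, DNAJC3, HERPUD1 and MANF) had log2 FC values between -0.11 and 0.35 and no call. HERPUD1, which serves ER-associated degradation, came closest, at 0.35 with shRBM10#1 (edgeR FDR = 0.0719).

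On the length-corrected TPM scale, which allows levels of genes to be compared, the mean shScr level was highest for CALR (754 TPM), ATF4 (668 TPM) and DDIT4 (441 TPM) and lowest for ERN1 (4.98 TPM), DNAJB9 (5.34 TPM), VLDLR (5.54 TPM) and EIF2AK3 (6.35 TPM). The ATF4 mRNA was thus among the most abundant of the list in every condition (475 TPM with shRBM10#1 and 574 TPM with shRBM10#2), while CHAC1 went from 16.2 TPM with shScr to 2.02 with shRBM10#1 and 6.47 with shRBM10#2.

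The shRNAs were also compared with each other, since a call with one and not the other does not show a difference. Of the ATF4 targets, 7 were higher and 1 (VLDLR) was lower with shRBM10#2 than with shRBM10#1, where 11.0% of all genes were higher and 14.5% lower (edgeR, FDR below 0.05). The largest differences were in CHAC1 (log2 FC 1.67, SE 0.301, edgeR FDR = 0.00219), ASNS (0.97, edgeR FDR = 0.000594), SESN2 (0.87, edgeR FDR = 0.000803) and PSAT1 (0.61, edgeR FDR = 0.00215), each higher in both shRBM10#2 libraries than in both shRBM10#1 libraries and called in all 12 alternative settings. These 4 genes fell further with the shRNA that left more RBM10 mRNA. For DDIT4, TRIB3, PPP1R15A, SLC3A2, SLC7A5 and SLC7A1 the differences between the shRNAs ran from 0.03 to 0.18 with an SE of 0.078 to 0.109 and were not called. Under other settings the difference passed for DDIT4 with no filter on low counts (edgeR FDR = 0.0403) or without shScr replicate 1 or 2 (edgeR FDR = 0.0472 and 0.047). It passed for SLC7A5 and SLC7A1 without shRBM10#1 replicate 1 (edgeR FDR = 0.013 and 0.0414). Of the chaperones, 13 of 15 had a log2 FC below 0 with shRBM10#2 relative to shRBM10#1, and 5 were lower (PDIA4, PDIA6, CALR, SDF2L1 and CRELD2) and 0 were higher (6 of the 15 at an unadjusted edgeR p below 0.05), and of the regulators ATF5 was lower and ATF4 and CEBPG were higher. Without either shRBM10#2 library the count of ATF4 targets called fell from 8 to 5 and that of chaperones from 5 to 2.

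When the 4 RBM10 KD libraries were pooled into a single group, 5 of the 16 ATF4 targets were lower (DDIT4, SLC3A2, SLC7A5, SLC7A1 and STC2) and 0 were higher, where 1.08% of all genes were lower and 0.542% higher (edgeR, FDR below 0.05). No chaperone and no regulator was called in either direction, with 3 and 4 of them at an unadjusted edgeR p below 0.05. DESeq2 called 0 chaperones, 1 regulator (lower) and 9 ATF4 targets (all lower). The log2 FC was -0.85 for DDIT4 (edgeR FDR = 0.00897), -0.94 for SLC7A5 (edgeR FDR = 0.0119), -0.90 for STC2 (edgeR FDR = 0.0176), -0.62 for SLC7A1 (edgeR FDR = 0.0225) and -0.66 for SLC3A2 (edgeR FDR = 0.0242). ASNS and CHAC1, which differed between the shRNAs, had log2 FC values of -1.23 and -1.89 and did not pass (edgeR FDR = 0.0713 and 0.085). All 16 targets had a negative log2 FC, and the 4 RBM10 KD libraries lay below both shScr libraries for 12 of them, where 14.5% of all genes did so. With either shScr library left out, 1 control library remained, whose spread is taken from the other group, and the count was 0 of the 16 and 0 of all genes.

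**Figure D3:**
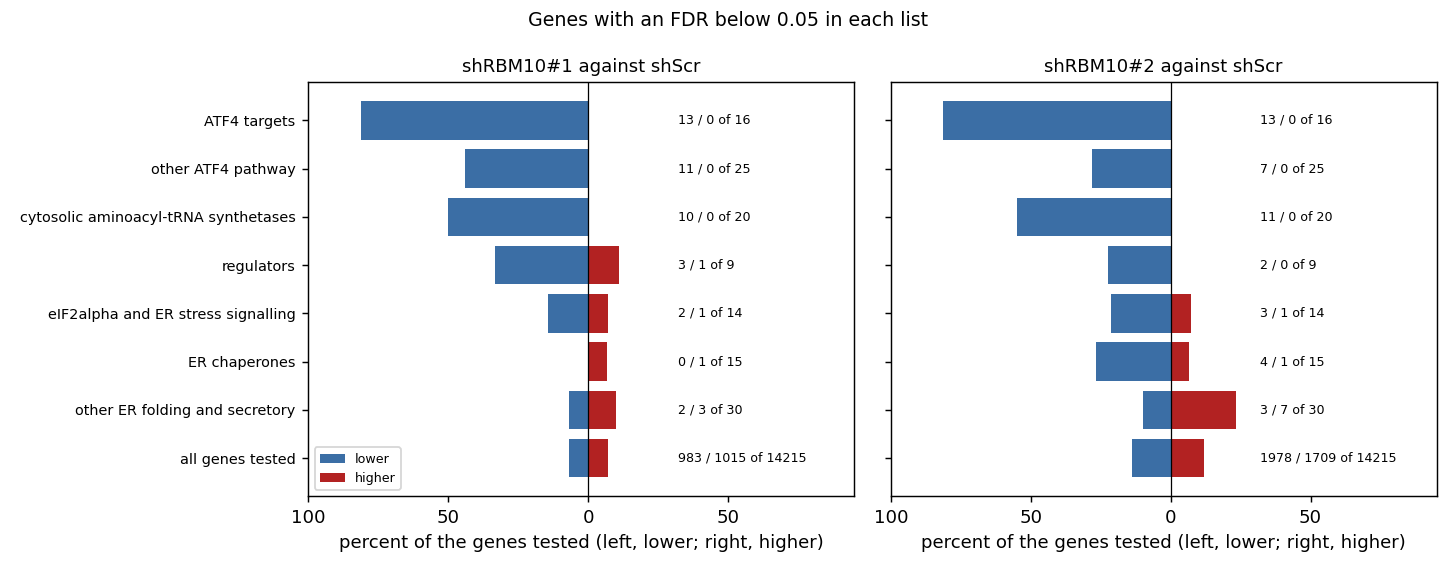
Percent of the genes of each list that were lower (blue, to the left) or higher (red, to the right) at an edgeR FDR below 0.05 with each shRNA relative to shScr, with the counts lower / higher of those tested beside the bars. ATF4 targets (13 lower of 16) and tRNA synthetases (10 and 11 lower of 20) stand to the left of the bar for all 14215 genes. Other ATF4 pathway genes, regulators and eIF2alpha and ER stress signalling genes also reach past that bar with each shRNA. ER chaperones reach past it on the left with shRBM10#2 alone (4 lower of 15), and other ER folding and secretory genes with neither. On the right the latter reach past it with each shRNA (3 and 7 higher of 30, beside 7.14% and 12.0% of all genes).

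Further genes of the same pathways were counted from lists set by function and chosen, like the members, with earlier results known. Their counts are to be read beside the 6.92% of all genes that were lower with shRBM10#1 and the 13.9% with shRBM10#2. Of 25 other ATF4 pathway genes, 11 were lower and 0 higher with shRBM10#1 and 7 lower and 0 higher with shRBM10#2, with medians of -0.30 and -0.14 and 17 and 12 at an unadjusted edgeR p below 0.05 (DESeq2, 12 and 8 lower and 0 higher). With a library left out, 7 (without shScr replicate 1) to 14 (without shRBM10#1 replicate 1) were lower with shRBM10#1 and 6 to 11 (without shScr replicate 2) with shRBM10#2. Lower with both were GPT2, an alanine transaminase (log2 FC -0.84 and -0.67), MTHFD1L, a folate enzyme (-0.52 and -0.41), JDP2, a bZIP repressor (-0.41 and -0.55), ATF3, a stress-induced bZIP factor (-1.47 and -0.63), and SLC6A9, a glycine transporter (-0.48 and -0.72). Of the 20 cytosolic aminoacyl-tRNA synthetases, which charge tRNAs with amino acids, 10 were lower with shRBM10#1 and 11 with shRBM10#2, 8 of them with both, and 0 were higher. Their medians were -0.20 and -0.24, and 13 and 11 had an unadjusted edgeR p below 0.05 (DESeq2, 10 and 11 lower and 0 higher). The counts fell to 5 or 6 with shRBM10#1 without any 1 library other than shRBM10#1 replicate 1, and to between 5 and 7 with shRBM10#2 without any shScr or shRBM10#2 library. The synthetases with the strongest calls were those for cysteine (CARS, -0.77 and -0.54), methionine (MARS, -0.54 and -0.56), alanine (AARS, -0.64 and -0.84), glycine (GARS, -0.998 and -0.61) and threonine (TARS, -0.49 and -0.32). GARS gave 127 and 105 CPM with shScr, 64.2 and 52.3 with shRBM10#1 and 77.9 and 74.8 with shRBM10#2, so the conditions did not overlap.

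Of 30 other ER folding and secretory genes, 2 were lower and 3 higher with shRBM10#1, and 3 lower and 7 higher with shRBM10#2, with medians of 0.03 and 0.13. These counts stand beside 6.92% of all genes lower and 7.14% higher with shRBM10#1, and 13.9% lower and 12.0% higher with shRBM10#2 (edgeR, FDR below 0.05). With a library left out, they ran from 0 to 2 lower and 0 to 6 higher with shRBM10#1 and from 0 to 6 lower and 1 to 9 higher with shRBM10#2. Higher with both were PDIA5, a disulfide isomerase (0.40 and 0.36), and SSR2, a subunit of the translocon-associated complex (0.30 and 0.39). Of 14 further genes of eIF2alpha and ER stress signalling, 2 were lower and 1 higher with shRBM10#1, and 3 lower and 1 higher with shRBM10#2, to be read beside the same shares. With a library left out, 2 to 3 were lower and 0 to 1 higher with shRBM10#1, and 1 to 4 lower and 0 to 1 higher with shRBM10#2. CDKN1A (p21), a cell cycle inhibitor, was lower with both, at 34.6 and 36.4 CPM with shScr, 16.3 and 21.2 with shRBM10#1 and 22.2 and 19.3 with shRBM10#2 (log2 FC -0.92 and -0.77, edgeR FDR = 0.000217 and 0.000637).

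The XBP1 isoforms were examined because IRE1 makes the active factor by removing 26 nucleotides from the XBP1 mRNA. The segment lies at chr22:28796124-28796149 (GRCh38, minus strand), within the coding part of exon 4 of 5, and is shown in capitals in the unspliced form with 20 bases on each side, followed by the joined form.
XBP1 unspliced: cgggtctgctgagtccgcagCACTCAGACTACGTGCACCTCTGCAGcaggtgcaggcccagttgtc
XBP1 spliced: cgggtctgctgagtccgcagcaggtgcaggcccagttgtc

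In shScr replicates 1 and 2 the spliced isoform took 8.43% (95% Wilson interval 7.61 to 9.35) and 8.85% (7.95 to 9.84) of the XBP1 expected counts. In the shRBM10#1 replicates it took 7.72% (6.84 to 8.69) and 9.54% (8.74 to 10.4). In the shRBM10#2 replicates it took 7.09% (6.34 to 7.95) and 8.62% (7.76 to 9.59). The conditions overlapped, and the libraries of one shRNA differed from each other more than the condition means did. The mean difference from shScr was -0.00624 percentage points with shRBM10#1 (exact permutation test over libraries, two-sided, p = 1) and -0.782 with shRBM10#2 (exact permutation p = 0.667). The smallest p that 2 libraries against 2 can give in this test is 0.333. Of the 4 RBM10 KD libraries together, the difference was -0.394 (exact permutation p = 0.667, smallest possible 0.133). The intervals treat all XBP1 expected counts as informative, whereas RSEM divides between the isoforms the reads that do not cross the segment. They are thus too narrow even for counting error, and they leave out the spread between libraries.

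**Figure D4:**
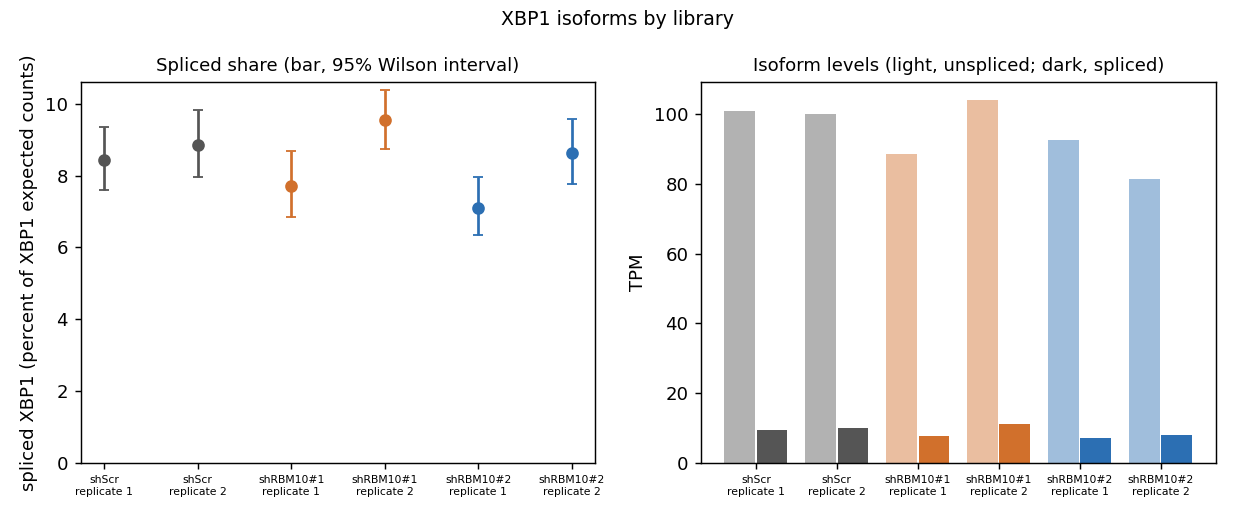
Left, percent of XBP1 expected counts assigned to the spliced isoform in each library. Bars are 95% Wilson intervals on all XBP1 expected counts, too narrow even for counting error. Right, TPM of the unspliced (light) and spliced (dark) isoform in each library. The spliced share lies between 7.09% and 9.54% in all 6 libraries, and the unspliced isoform between 81.4 and 104 TPM.

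Among the 18 members with at least 2 isoforms past the filter, isoform usage was called for SLC3A2 with shRBM10#2 (edgeR diffSpliceDGE, FDR = 0.0411) and for 0 with shRBM10#1, where 2.75% and 0.172% of the 6405 genes tested were called. With shRBM10#1, 4 of the 18 had an unadjusted edgeR p below 0.05 (ASNS, CEBPG, SHMT2 and SLC3A2), and limma's diffSplice called 1. The isoform NM_002394 of SLC3A2 made up 10.1% and 12.2% of the gene's counts with shScr, 16.1% and 16.7% with shRBM10#1 and 16.6% and 16.5% with shRBM10#2. That share was higher in every RBM10 KD library, while the gene total was lower. Expected counts of NM_002394, not scaled to library size, lay between 1523 and 1844 in all libraries. Those of the largest isoform, NM_001013251, were 13431 and 10232 with shScr and between 7072 and 7857 in the RBM10 KD libraries. Its share was 82.1% and 78.3% with shScr, 74.7% and 74.2% with shRBM10#1 and 70.4% and 70.1% with shRBM10#2. The isoform NM_001012662 made up 5.25% and 6.48% with shScr, 6.41% and 6.17% with shRBM10#1 and 9.48% and 9.2% with shRBM10#2, so its share was higher with shRBM10#2 than in every other library. The call was lost when any library but shScr replicate 2 was left out. Between the shRNAs, 1.92% of the genes tested and 0 of the 18 members were called, with 2 members (ASNS and SLC3A2) at an unadjusted edgeR p below 0.05 and 0 called by limma's diffSplice. Usage of XBP1 was not called in any comparison (edgeR diffSpliceDGE, unadjusted p = 0.992, 0.914 and 0.906).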

How the data were processed

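The labels name STAR 2.4, RSEM 1.2.29, edgeR and build hg19, and the strand protocol is not given in the sources used here, so reads of overlapping antisense genes cannot be told apart. For 51398 RefSeq isoforms in each library, the authors deposited RSEM's expected counts, which need not be whole, TPM, FPKM (not used for any result) and each isoform's percent of its gene. Here, expected counts were summed per gene symbol, rounded and tested with the quasi-likelihood test of edgeR 4.0.16 (R 4.3.3) after TMM scaling (factors 0.979 to 1.025) and filterByExpr. One fit over all 6 libraries with a coefficient per condition gave the comparisons with each shRNA and between them, and a fit of 2 groups gave RBM10 KD against shScr. FDR is the Benjamini-Hochberg value over all 14215 genes, with a threshold of 0.05 and, where stated, a log2 FC beyond 1 in size. All tests were two-sided. Isoform usage was tested with diffSpliceDGE, and SciPy 1.17.1 gave the exact permutation tests and 95% Wilson intervals.

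The labels number the libraries of a condition but do not say that they are separate cultures, so p-values measure the spread between these libraries, which may be technical. Replicates differed by more than sampling noise (chi-square per degree of freedom 9.37, 11.9 and 3.16 for shScr, shRBM10#1 and shRBM10#2) and were counted separately. On simulated counts for shRBM10#1 against shScr, 97.5% of 200 genes changed by a log2 FC of 1 were recovered among 14081 genes tested, with 16 false calls. Smaller changes, and changes in genes of low count, were not simulated, so their recovery is not known.

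The members and lists were chosen with earlier results of these data known. Values in every library were given for regulators, for members called with both shRNAs or between the shRNAs, and for HSPA5, HSP90B1 and CALR. From each further list, up to 5 genes called with both shRNAs were named by the larger of their FDR values. Library values of GARS and CDKN1A were added after they were seen. Alternatives were DESeq2 1.42.0, edgeR with DESeq2 size factors, with a replicate block, with an effective length offset, without the low-count filter or with a minimum of 10 counts in all libraries, limma 3.58.1 diffSplice for usage, the TPM share and the deposited percent for XBP1, and each library left out. Gene positions come from GENCODE 29 (GRCh38), promoters from RefSeq (GRCh38.p14), and none was converted from another build. No protein sequence is shown. A further immune marker gene is not reported here.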

Additional observations from a re-analysis of the deposited data

Results flagged for a closer look

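The members below differed between the shRNAs by the test of that difference itself (edgeR, FDR below 0.05), with log2 FC values for shRBM10#2 relative to shRBM10#1. ATF4 targets that were higher with shRBM10#2 were CHAC1 (1.67), ASNS (0.97), SESN2 (0.87), PSAT1 (0.61), PSPH (0.36), MTHFD2 (0.35) and STC2 (0.28), and VLDLR was lower (-0.51). Among the regulators, ATF4 (0.24) and CEBPG (0.28) were higher and ATF5 (-0.28) was lower. The chaperones SDF2L1 (-0.59), CALR (-0.39), CRELD2 (-0.25), PDIA6 (-0.24) and PDIA4 (-0.21) were lower. Calls that held in every alternative tried, those that leave out a library included, were those of CHAC1, ASNS, SESN2, PSAT1, PSPH, CALR and SDF2L1. The other 9 lost the threshold in at least 1 of them, and the cause was not tested.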

How the results depend on the processing

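No result changed direction past a threshold under any alternative. For RBM10 KD against shScr, the genes called went from 230 to 718 with DESeq2 and 52 with the replicate block, and to 0 to 412 with each library left out. The ATF4 targets called in it went from 5 to 9 with DESeq2 and 9 with no filter on low counts, and to 0 to 7 with a library left out. Over all 14215 genes, deviations of same-numbered libraries were near uncorrelated (-0.00411, -0.0191 and -0.0133). A value over all genes cannot show whether such libraries were handled together or shared a shift in a few genes. For the 16 ATF4 targets, replicate 1 was above replicate 2 for 15 in shScr, 12 in shRBM10#1 and 8 in shRBM10#2. The replicate block otherwise changed the chaperones called between the shRNAs from 5 to 3 and the usage calls with shRBM10#2 from 1 to 0, and it moved no other count of calls in a member group, both directions together, by over 1.5 times. The chaperones called with shRBM10#1 went from 1 to 2 with no filter on low counts. Usage calls with limma's diffSplice were 1 with shRBM10#1 and 2 with shRBM10#2. With a library left out, the genes called ran from 977 to 2618 with shRBM10#1 (1998 with all), from 953 to 4571 with shRBM10#2 (3687 with all) and from 923 to 3731 between the shRNAs (3623 with all). ATF4 targets called ran from 8 to 15 with shRBM10#2 and 5 to 10 between the shRNAs, chaperones from 1 to 3 with shRBM10#1, 1 to 6 with shRBM10#2 and 2 to 5 between the shRNAs, and usage calls with shRBM10#2 from 0 to 1. The causes were not tested. Of 240 values of members per comparison with a library left out, 230 kept their side of the threshold with shRBM10#1, 201 with shRBM10#2 and 212 between the shRNAs. Under the settings that keep all libraries, 234, 235 and 232 of 240 did so. Calls of small changes were often lost when 1 library was left out, with 2 per condition and the controls shared. The size of the change moved in some cases and not in others. With shRBM10#2 the log2 FC of PHGDH went from -0.23 to -0.10 without shScr replicate 1. That of CALR was -0.35 with all libraries and -0.34 and -0.36 without shRBM10#2 replicate 1 or 2.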
